A study of Mus musculus with 32 samples.

Results

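Genes of neutrophils and the chemokines that draw these cells into tissue were followed in 32 whole mouse mesothelioma tumors. Their symbols were S100a8, S100a9, Cxcr2, Retnlg and Csf3r for the neutrophil itself, Cxcl1, Cxcl2, Cxcl3 and Cxcl5 for the ligands, and Lcn2. Of these 10 genes, 9 had a row among the 39676 genes of the table, and Retnlg was not analysed here. The tumors grew from AB1 cells in BALB/c mice or from AE17 cells in C57BL/6 mice, either in the pleural cavity (intrapleural, IPL) or under the skin (subcutaneous, SC), and were taken on day 10 from untreated female mice. Crossing model with site gave 4 groups of 8 tumors, each tumor from its own mouse. AB1 and AE17 are mesothelioma lines raised in mice with asbestos, and each model rests on a single line. An AB1 inoculum held 500000 cells and an AE17 inoculum 1000000 cells, so that line, mouse strain and inoculum changed together and cannot be told apart. Lungs and surrounding tissue were cut away before RNA was prepared from the whole tumor, so that the values mix tumor cells, infiltrating cells, blood and any host tissue the tumor had grown into.

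Neutrophils are short-lived granulocytes that are made in the bone marrow, circulate in blood and enter tissue within hours of an alarm. CXCR2 is their main receptor for the CXC chemokines that carry a glutamate-leucine-arginine motif, among them CXCL1, CXCL2, CXCL3 and CXCL5, which tumor cells, stroma, mesothelium and macrophages can make. G-CSF, the product of Csf3, drives neutrophil production through the receptor encoded by Csf3r. S100A8 and S100A9 pair to form calprotectin, which fills much of the neutrophil cytosol and is also found in monocytes, and LCN2 is an iron-scavenging protein of neutrophil granules that epithelia and injured tissue also make.

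The 4 ligand genes lie close together on chromosome 5 within 147 kb (GRCm38), on the plus strand in the order Cxcl5, Cxcl3, Cxcl1 and Cxcl2. S100a8 and S100a9 lie within 26.7 kb of chromosome 3 on opposite strands. Because the ligands are textbook targets of NF-kappaB the stretches just upstream of their starts are shown, running from -120 to -1 where -1 is the last base before the RefSeq start site on GRCm38.p6. Capitals mark GGGAATTTCCC, the longest run of letters that the 250 bases before the starts of these 3 genes share and one that holds a known form of the NF-kappaB site, and TATAAA, a form of the TATA box, which does not overlap it.
Cxcl1 (chr5:90891125-90891244, plus strand): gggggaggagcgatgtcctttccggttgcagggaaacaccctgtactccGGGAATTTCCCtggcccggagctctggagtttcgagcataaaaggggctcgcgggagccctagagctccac
Cxcl2 (chr5:90903779-90903898, plus strand): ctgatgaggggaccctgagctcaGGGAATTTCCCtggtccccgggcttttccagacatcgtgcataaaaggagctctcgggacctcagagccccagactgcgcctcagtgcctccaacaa
Cxcl3 (chr5:90785981-90786100, plus strand): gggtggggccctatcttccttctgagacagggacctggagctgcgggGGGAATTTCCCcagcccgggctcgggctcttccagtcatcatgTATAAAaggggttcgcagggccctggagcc

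The shared 11 letters began at -71 in Cxcl1, -97 in Cxcl2 and -73 in Cxcl3. Searched on both strands in the 250 bases before each start, they were present in 14 of 32851 RefSeq windows, which is 0.0426%, and in 3 of the 8 windows found for the 9 genes, where the run had been chosen from those 3. TATAAA, searched likewise, was present in 12.4% of all windows and began at -30 in both Cxcl3 and S100a8. The table gave no window for Cxcl5. These letters describe the sequence and were not tested against the levels below.

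The deposited libraries held between 15432258 and 20649645 counts. At this depth 3 counts, taken as the smallest detectable number, equal 0.140 to 0.189 CPM (counts in each 1000000 counts of a library, scaled by TMM factors), which covers counting error only. Levels are given in CPM. Differences are log2 fold changes with their standard error from edgeR's quasi-likelihood test, called past the threshold when the p adjusted over all genes tested was under 0.05. In whole tumors, fewer cells of a type and less RNA per cell cannot be told apart. Sequencing lane moved with site: all 8 AB1 IPL libraries and 2 AB1 SC libraries ran on lane 3 and the other 6 AB1 SC libraries on lane 2, whereas 3 AE17 IPL libraries and all 8 AE17 SC libraries ran on lane 1 and the other 5 AE17 IPL libraries on lane 2. Values within a lane are given beside the site comparisons of the 9 genes. Of the other genes called between sites and listed further on, 47 in AB1 and 10 in AE17, 4 stayed past the threshold within 1 lane (Csf2, Il1a, Tnfaip3 and Vcam1, all in AB1), and 7 with lane as a term (Csf2, Il1a, Cxcl9, Cxcl11, Cxcl16, Itgal and Vcam1, all in AB1).

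In the AB1 model, these genes differed between the IPL and SC groups in both directions. S100a8, S100a9 and Lcn2 were higher in AB1 IPL than in AB1 SC tumors, Csf3r, Cxcl2 and Cxcl3 were lower, and Cxcr2, Cxcl1 and Cxcl5 did not pass the threshold. Of the 9 genes, 3 were called higher and 3 lower, against 12.3% and 10.7% of the 14645 genes tested, or 23% in either direction. With lane as a term 0 of the 9 stayed called, and within lane 3 also 0, so that site and lane cannot be told apart here. In the AE17 model none of the 8 genes that could be tested was called, against 5.73% of the 14668 genes tested. Two-sided unadjusted p-values were under 0.05 for 2 of those 8, Cxcl5 and Lcn2, and DESeq2 called 1, Lcn2 (adjusted p 0.0301).

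**Figure D1:**
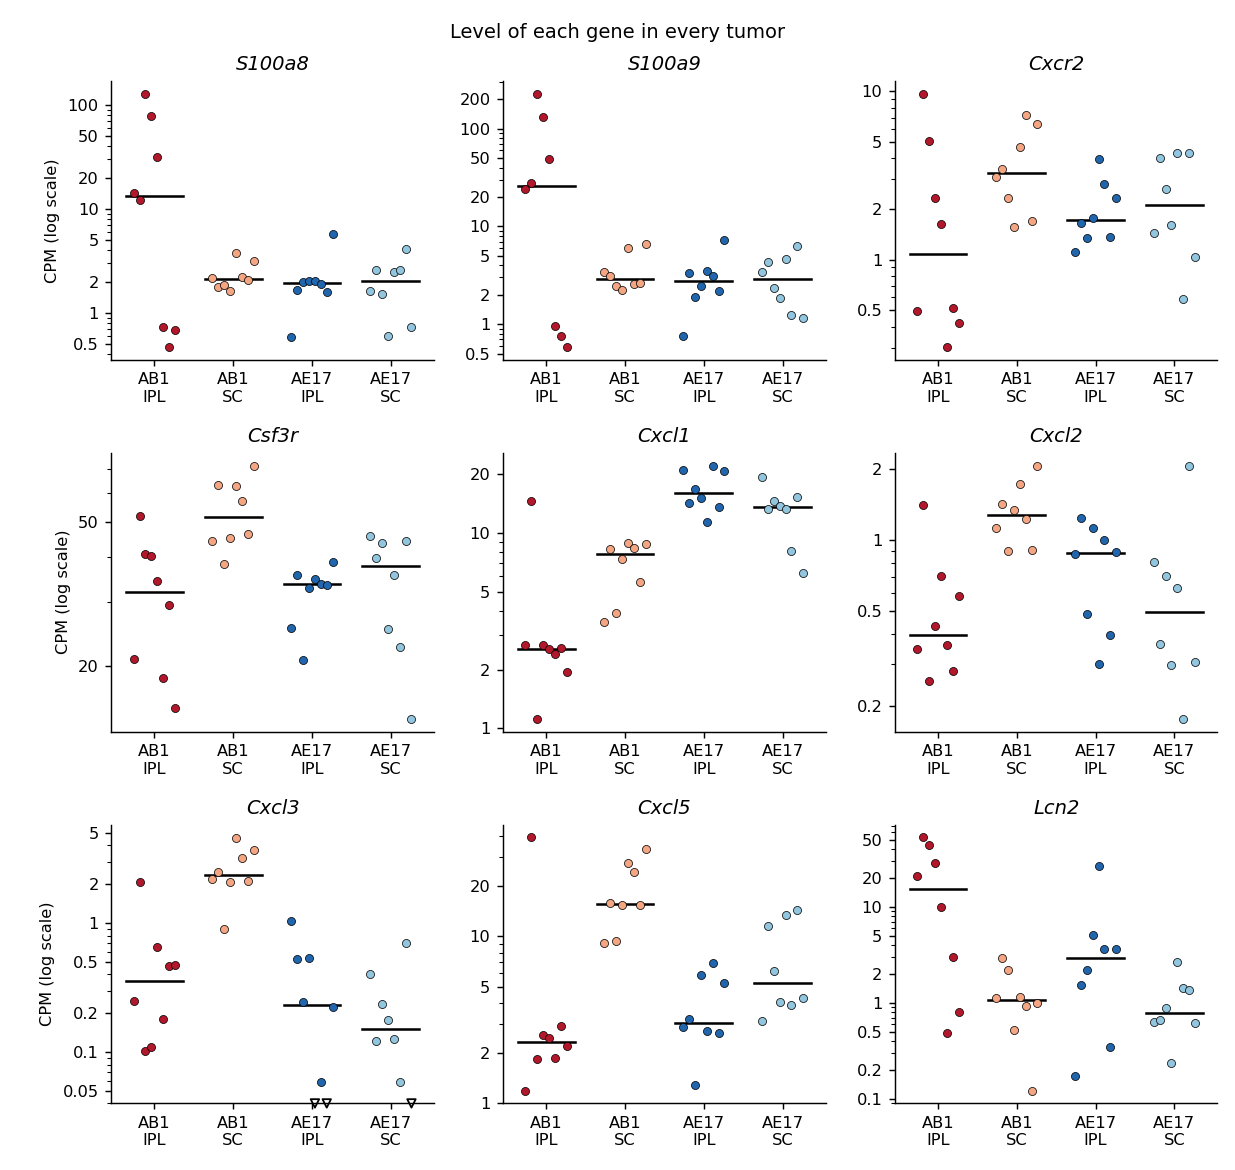
Level of each of the 9 genes in each of the 32 tumors, in CPM on log axes that differ between panels. Points are tumors, ordered by replicate number within a group, bars are group medians, and open triangles on the axis of Cxcl3 are 3 tumors without a count. For S100a8, 5 AB1 IPL tumors lie above and 3 below every AB1 SC tumor, and for Cxcl3 the 8 AB1 SC tumors lie above every AE17 SC tumor.

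S100a8 (chr3:90668978-90670035) was very uneven among the pleural AB1 tumors. It ranged from 0.468 to 128 CPM with a median of 13.3 in AB1 IPL tumors, a spread of 274-fold, and from 1.63 to 3.78 CPM with a median of 2.10 in AB1 SC tumors. Its partner S100a9 (chr3:90692632-90695721) ranged from 0.581 to 228 CPM with a median of 26.1 in AB1 IPL tumors and from 2.21 to 6.62 CPM with a median of 2.88 in AB1 SC tumors. No AB1 IPL tumor lay inside the AB1 SC range for S100a8: replicates 1 to 5 were above all 8 AB1 SC tumors and replicates 6, 7 and 8 below all 8, and the same held for S100a9. The difference was 3.81 ± 0.97 (SE) for S100a8 (adjusted p = 0.0097) and 3.97 ± 1.02 for S100a9 (adjusted p = 0.010), about 14-fold and 15.7-fold. Leaving out each tumor in turn kept both calls, with log2 fold changes of 3.03 to 4.00 for S100a8 and 3.17 to 4.17 for S100a9. The SD of log2 CPM over the 8 AB1 IPL tumors was 3.11 for S100a8 and 3.38 for S100a9, where the median of 15681 genes was 0.313. Within lane 3 the differences were 4.01 (adjusted p = 0.51) and 4.08 (adjusted p = 0.51), from 8 tumors against 2.

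In AE17 tumors the calprotectin genes were low at both sites. S100a8 ranged from 0.582 to 5.79 CPM (median 1.92) in AE17 IPL tumors and from 0.594 to 4.12 CPM (median 2.03) in AE17 SC tumors. S100a9 ranged from 0.756 to 7.18 CPM (median 2.77) and from 1.16 to 6.24 CPM (median 2.88). The groups overlapped, and the differences were 0.12 ± 0.41 for S100a8 (adjusted p = 0.89) and -0.03 ± 0.40 for S100a9 (adjusted p = 0.97), and 0.61 and 0.41 within lane 1 (3 IPL and 8 SC tumors). The site effect was larger in AB1 than in AE17 by 3.70 ± 1.06 for S100a8 (interaction, adjusted p = 0.014) and by 4.02 ± 1.11 for S100a9 (adjusted p = 0.011). With lane as a term these were 3.46 (adjusted p = 0.31) and 3.74 (adjusted p = 0.30). Of the 9 genes 4 passed this interaction test, against 20.5% of the 15681 genes tested, and none with lane as a term.

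The 5 AB1 IPL tumors with high calprotectin did not share 1 profile. Ltf, Camp, Ngp and Mpo, which encode granule proteins made by neutrophil precursors in the marrow, stood highest in replicate 3 (S100a8 128 CPM), where Ltf was at 102, Ngp at 128, Camp at 40.4 and Mpo at 31.7 CPM. They were next highest in replicate 4 (S100a8 77.7 CPM, Ltf 62.3, Ngp 93.6), in replicate 5 (S100a8 31.4 CPM, Ltf 23.8, Ngp 30.4) and in replicate 1 (S100a8 14.3 CPM, Ltf 9.27, Ngp 13.7). Replicate 2 had 12.2 CPM of S100a8 and 28.1 CPM of S100a9 with Ltf at 0.485, Ngp at 0.269 and Mpo at 0.377 CPM. Prtn3, a protease gene of the same list, did not follow that order, at 9.36, 8.69, 2.12 and 2.23 CPM in replicates 3, 4, 5 and 1, 3.72 CPM in replicate 2 and 0.181 to 0.374 CPM in replicates 6, 7 and 8. Replicates 6, 7 and 8 had at most 0.724 CPM of S100a8 and at most 0.362 CPM of Ltf. Ly6g, the surface marker by which mouse neutrophils are usually sorted, was at 7.42, 4.18, 1.63 and 0.743 CPM in replicates 3, 4, 5 and 1, at 0.162 CPM in replicate 2, and had no count in replicates 6, 7 and 8.

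Among AB1 IPL tumors, red cell genes were high where calprotectin was high, and muscle genes were high in some of those tumors. The summed level of 8 red cell and platelet genes was 3352, 3579, 1135 and 354 CPM in replicates 3, 4, 5 and 1, 682 CPM in replicate 2, and 60.4 to 94.6 CPM in replicates 6, 7 and 8, against 31.5 to 78.8 CPM in AB1 SC tumors. High red cell sums also occurred with low calprotectin: AE17 IPL replicates 5 and 6 had sums of 717 and 702 CPM with 2.04 and 1.88 CPM of S100a8. Of these 8 genes 4, the globin genes Hba-a1, Hba-a2, Hbb-bs and Hbb-bt, were called higher in AB1 IPL and none lower, 6 could be tested, and none was at 0 in every tumor of a group. Of all genes tested in AB1, 12.3% were higher. All 6 skeletal muscle genes were called higher in AB1 IPL, against the same 12.3%, with sums of 105 to 3884 CPM (median 1676) against 53.8 to 352 CPM (median 228) in AB1 SC, but not in the order of calprotectin: the sums were 3884, 3713, 2500, 1171 and 105 CPM in replicates 4, 3, 1, 5 and 2, and 2180, 960 and 452 CPM in replicates 7, 6 and 8. Of the 4 lung epithelium genes with a row none could be tested, and their sum was at most 1.74 CPM in AB1 IPL tumors. With a red cell score added to the fit, chosen after seeing the data, the site difference in AB1 turned to -1.80 for S100a8 (adjusted p = 0.067) and to -1.93 for S100a9 (adjusted p = 0.12), and of the 9 genes only Csf3r remained past the threshold. Whether blood, marrow or muscle in the sampled tissue had a part in the result was not tested.

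**Figure D2:**
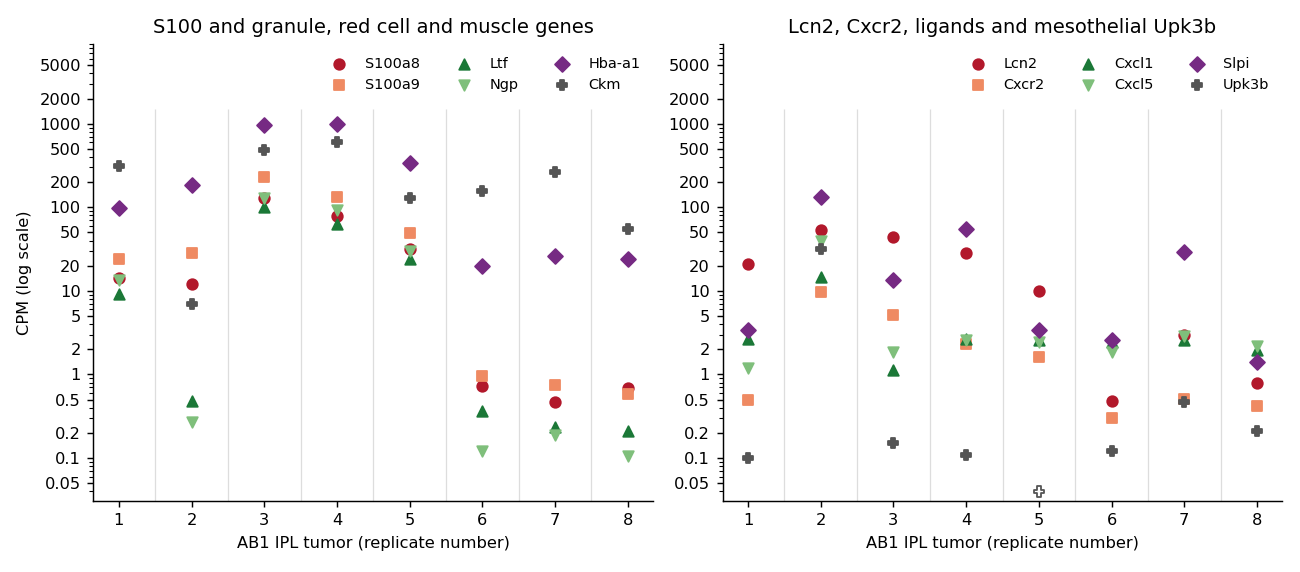
The 8 AB1 IPL tumors by replicate number, in CPM on a log axis, for S100a8, S100a9, the granule genes Ltf and Ngp, the globin gene Hba-a1 and the muscle gene Ckm (left), and for Lcn2, Cxcr2, Cxcl1, Cxcl5, Slpi and the mesothelial gene Upk3b (right). The open symbol is a tumor without a count. S100a8, Ltf, Ngp and Hba-a1 are high together in replicates 3, 4 and 5, whereas replicate 2 has 39.3 CPM of Cxcl5 and 31.8 CPM of Upk3b with 0.269 CPM of Ngp.

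Cxcr2, the chemokine receptor, was not called between sites. It ranged from 0.302 to 9.70 CPM (median 1.07) in AB1 IPL, from 1.57 to 7.23 CPM (median 3.28) in AB1 SC, from 1.10 to 3.97 CPM (median 1.71) in AE17 IPL and from 0.586 to 4.30 CPM (median 2.12) in AE17 SC tumors. Its difference between sites was -0.60 ± 0.62 in AB1 (adjusted p = 0.51) and -0.27 ± 0.38 in AE17 (adjusted p = 0.70), and -0.42 within lane 3 and -0.19 within lane 1. Neither these nor the 2 comparisons between models passed the threshold. Within the AB1 IPL group it was highest in replicates 2 (9.70 CPM), 3 (5.09 CPM), 4 (2.34 CPM) and 5 (1.63 CPM), all with high calprotectin, and was 0.496 CPM in replicate 1, with 14.3 CPM of S100a8, and 0.302 to 0.515 CPM in replicates 6, 7 and 8. The ratio of S100a9 to Cxcr2 counts had a median of 16.6 in AB1 IPL tumors, with a highest value of 57.0, and medians of 1.08, 1.39 and 1.13 in AB1 SC, AE17 IPL and AE17 SC tumors. The ratio of S100a9 to S100a8 had steadier group medians, of 1.64, 1.47, 1.33 and 1.62 in the 4 groups. Within AE17 SC tumors it ran more widely, from 0.477 to 3.10, than the ratio of S100a9 to Cxcr2, from 0.889 to 2.36.

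Csf3r, the receptor for G-CSF, which monocytes and macrophages carry besides neutrophils, was lower in AB1 IPL tumors. Levels ran from 15.3 to 52.0 CPM (median 32) in AB1 IPL and from 38.1 to 71.6 CPM (median 51.7) in AB1 SC, and 5 of the 8 AB1 IPL tumors were below every AB1 SC tumor. The difference was -0.80 ± 0.22 (adjusted p = 0.015), 1.74-fold, and it was called without any single tumor. Within lane 3 it was -0.84 (adjusted p = 0.40). In AE17 tumors Csf3r ran from 20.7 to 38.7 CPM (median 33.6) in IPL and from 14.3 to 45.7 CPM (median 37.8) in SC, with a difference of -0.08 ± 0.21 (adjusted p = 0.84), and 0.06 within lane 1. Set per kilobase of exon, so that genes can be compared, the group medians of Csf3r were 14.3, 9.31 and 10.5 CPM per kb in AB1 SC, AE17 IPL and AE17 SC, above S100a9 at 5.52, 5.30 and 5.51 and S100a8 at 3.03, 2.76 and 2.93. In AB1 IPL tumors the medians ran the other way, with 49.9 CPM per kb for S100a9, 19.1 for S100a8 and 8.86 for Csf3r, an order that was not tested.

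Other genes of mature neutrophils gave no common direction. Of 24 listed genes with a row, 19 could be tested in AB1, where 3 were called higher in IPL tumors (Cd177, G0s2 and Slpi) and 5 lower (among them Clec4e, Il1r2, Mcemp1 and Trem1), with a median log2 fold change of -0.18, where 12.3% of all genes tested were higher and 10.7% lower. In AE17 20 could be tested, with 2 called higher (Padi4 and Slpi), 1 lower (Mcemp1) and a median of -0.08, where 5.73% of all genes tested were called in either direction. Among the most abundant of them were Mmp9, a matrix metalloproteinase, with medians of 130 CPM in AB1 IPL and 91.1 CPM in AB1 SC tumors (0.34 ± 0.21, adjusted p = 0.26), Alox5ap of leukotriene synthesis (58.6 and 70.8 CPM, -0.17 ± 0.14, adjusted p = 0.41), and the protease inhibitor Slpi. Slpi rose in both models, by 2.81 ± 0.82 in AB1 (adjusted p = 0.020), where replicate 2 held 131 CPM against an AB1 SC maximum of 6.04, and by 1.07 ± 0.30 in AE17 (adjusted p = 0.045). The summed level of the 24 genes overlapped between sites, from 181 to 511 CPM in AB1 IPL, 270 to 360 CPM in AB1 SC, 162 to 240 CPM in AE17 IPL and 146 to 264 CPM in AE17 SC tumors.

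Of the 8 listed granule genes of precursors with a row, 3 could be tested in AB1, with Ltf higher (5.40 ± 1.26, adjusted p = 0.0055, and -0.94 with the red cell score in the fit) and the regulator Gfi1 lower, where 12.3% of all genes tested were higher and 10.7% lower. The others were too low in most tumors for the test: Ngp was at 0.106 to 128 CPM (median 6.97) in AB1 IPL tumors and at most 0.0583 CPM in AB1 SC tumors, and Camp at up to 40.4 CPM and up to 0.101 CPM. Chil3, which macrophages also make, ranged from 0.421 to 18.6 CPM in AB1 IPL and from 0.988 to 63.9 CPM in AB1 SC tumors (-1.63 ± 0.82, adjusted p = 0.17). None of the 3 genes tested in AE17 passed the threshold, where 5.73% of all genes tested did. Ly6g stood apart from calprotectin between the models: it had at most 0.312 CPM in AB1 SC tumors and 0.469 to 3.24 CPM in AE17 SC tumors, which did not overlap (AB1 minus AE17 -3.58 ± 0.87, adjusted p = 0.00072). It was 1.62 to 4.13 CPM in AE17 IPL tumors and did not pass the threshold between AE17 sites (0.72 ± 0.32, adjusted p = 0.17).

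The 8 genes whose log2 CPM was most like the mean of S100a8, S100a9, Cxcr2 and Csf3r, by Pearson's r over 32 tumors with group means removed and among 13980 genes with at least 1 CPM on average, were Cd177 (0.90), Prtn3 (0.88), Ifitm6 (0.84), Padi4 (0.82), Alas2 (0.81), Nfe2 (0.79), Ltf (0.79) and Pth1r (0.79). The spreads of the groups were not made equal, so that the 8 AB1 IPL tumors weigh most in these r values. The SD of log2 CPM of S100a8 was 3.11 in AB1 IPL tumors and 0.40, 0.83 and 0.89 in AB1 SC, AE17 IPL and AE17 SC tumors. Cd177 encodes a neutrophil surface protein, Prtn3 a granule protease, Padi4 the enzyme that citrullinates histones in neutrophils, and Alas2 the first enzyme of heme synthesis in red cell precursors. Cd177 ranged from 0.608 to 16.4 CPM (median 2.61) in AB1 IPL and from 0.538 to 1.95 CPM (median 1.13) in AB1 SC tumors and rose by 2.05 ± 0.63 (adjusted p = 0.026), a difference that was -1.21 with the red cell score in the fit and 2.34 within lane 3 (adjusted p = 0.54). Padi4 behaved otherwise, with 9.43 to 20.6 CPM in AE17 IPL, 4.48 to 9.0 CPM in AE17 SC and at most 3.61 CPM in AB1 tumors, and was called higher in AE17 IPL than AE17 SC (1.23 ± 0.18, adjusted p = 0.0051).

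Cxcl3 (chr5:90786103-90789600), a close relative of Cxcl1 and Cxcl2, was higher in AB1 SC tumors than in AB1 IPL or AE17 SC tumors. It ranged from 0.897 to 4.58 CPM (median 2.34) in AB1 SC tumors, from 0.102 to 2.10 CPM (median 0.358) in AB1 IPL, from 0 to 1.05 CPM (median 0.234) in AE17 IPL and from 0 to 0.707 CPM (median 0.152) in AE17 SC tumors. In AB1, 7 of 8 IPL tumors were below every SC tumor, and the difference was -2.32 ± 0.49 (adjusted p = 0.0024), 4.98-fold. At least 3 counts were found in all 8 AB1 SC tumors (15 to 80 counts), 6 of 8 AB1 IPL tumors (2 to 39), 5 of 8 AE17 IPL tumors (0 to 18) and 4 of 8 AE17 SC tumors (0 to 12), and in AE17 the gene was too low for the edgeR test. An exact two-sided permutation test of its mean log2 CPM in AE17 gave a difference of 0.18 with p = 0.74, where the smallest p that 8 against 8 tumors allow is 0.000155. AB1 SC exceeded AE17 SC by 3.48 ± 0.61 (adjusted p = 1.27e-05), without overlap. The site effects of the models differed by -2.81 ± 0.90 (adjusted p = 0.025), a call that was lost without AE17 IPL replicate 1 (-2.28, adjusted p = 0.082), the AE17 tumor with the most Cxcl3, and with lane as a term (-0.89, adjusted p = 0.85). It was also lost without a filter on low counts (-2.79, adjusted p = 0.0516).

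Cxcl2 (chr5:90903871-90905938), also known as MIP-2, was low in all groups. Levels were 0.254 to 1.4 CPM (median 0.398) in AB1 IPL, 0.897 to 2.06 CPM (median 1.28) in AB1 SC, 0.300 to 1.24 CPM (median 0.881) in AE17 IPL and 0.176 to 2.06 CPM (median 0.496) in AE17 SC tumors. It was lower in AB1 IPL than in AB1 SC by -1.32 ± 0.31 (adjusted p = 0.0052), 7 of 8 tumors being below every SC tumor. In AE17 the difference was 0.24 ± 0.43 (adjusted p = 0.77), and 0.19 within lane 1. The difference between the site effects was -1.54 ± 0.55 (adjusted p = 0.044), close to the threshold, and -1.41 with lane as a term (adjusted p = 0.39). It was -1.52 without a filter on low counts (adjusted p = 0.073) and -1.62 with a replicate block (adjusted p = 0.057). The call was lost in 20 of 32 fits that left out a tumor, with -1.56 to -1.4 and adjusted p-values of 0.0503 to 0.0744: without AB1 IPL replicates 1, 3, 4, 6 or 7, AB1 SC 2, 4, 5, 6 or 8, AE17 IPL 1, 2, 4, 6 or 8, and AE17 SC 2, 4, 5, 6 or 8. Within lane 3 the AB1 differences were -2.16 for Cxcl3 (adjusted p = 0.30) and -1.28 for Cxcl2 (adjusted p = 0.36).

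Cxcl1 (chr5:90891241-90893115) and Cxcl5 (chr5:90759360-90761624) were the abundant ligands, and in AB1 their result turned on 1 tumor. Cxcl1 was at 1.12 to 2.68 CPM in 7 AB1 IPL tumors and at 14.6 CPM in replicate 2, against 3.49 to 8.87 CPM (median 7.80) in AB1 SC tumors. Cxcl5 was at 1.19 to 2.90 CPM in the same 7 and at 39.3 CPM in replicate 2, against 9.14 to 33.2 CPM (median 15.7) in AB1 SC tumors. Thus 7 of 8 AB1 IPL tumors were below, and 1 above, every AB1 SC tumor for both genes. The differences with all 8 tumors were -0.87 ± 0.43 for Cxcl1 (adjusted p = 0.16) and -1.51 ± 0.69 for Cxcl5 (adjusted p = 0.13). Without replicate 2 they were -1.60 (adjusted p = 0.00018) and -3.15 (adjusted p = 7.05e-06), both past the threshold, and the difference of site effects then passed too, at -1.98 for Cxcl1 (adjusted p = 0.00013) and -2.17 for Cxcl5 (adjusted p = 0.0032). For Cxcl1 it also passed without AE17 SC replicate 1 (-1.34, adjusted p = 0.049). Within lane 3 the differences were -0.69 (adjusted p = 0.78) and -0.95 (adjusted p = 0.80).

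AB1 IPL replicate 2 was the highest of its group for 7 of the 9 genes, Cxcr2, Csf3r, Lcn2 and the 4 ligands, while replicate 3 was highest for S100a8 and S100a9. It also held most of the mesothelial signal: the summed level of Wt1, Upk3b, Lrrn4 and Krt19 was 77.1 CPM there and at most 3.28 CPM in the other 7 tumors of the group. Upk3b, a marker of the mesothelial lining, was at 31.8 CPM in it and at most 0.468 CPM in the others, and Lrrn4 at 24.2 CPM and at most 1.78 CPM. Its macrophage and monocyte genes summed to 3671 CPM, the highest of the group, and its Cxcl12 stood at 167 CPM and Il1b at 71.1 CPM. The part of these cells in its chemokine levels was not tested.

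In AE17 tumors Cxcl1 was detected well above the floor at both sites. It ranged from 11.4 to 22.2 CPM (median 16) in AE17 IPL and from 6.27 to 19.4 CPM (median 13.5) in AE17 SC tumors, with a difference of 0.38 ± 0.20 (adjusted p = 0.25). Cxcl5 ranged from 1.29 to 6.97 CPM (median 3.02) in AE17 IPL and from 3.11 to 14.4 CPM (median 5.25) in AE17 SC tumors, a difference of -0.98 ± 0.39 (adjusted p = 0.13), and 4 of 8 IPL tumors were below every SC tumor. Within lane 1, from 3 IPL against 8 SC tumors, these were 0.53 (adjusted p = 0.39) and -0.62 (adjusted p = 0.58).

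The make-up of the ligand pool was set out as shares. Cxcl5 made up a median of 63.3% of the summed CPM of the 4 ligands in AB1 SC tumors and Cxcl1 22.9%, whereas Cxcl1 made up 77.8% in AE17 IPL and 62.1% in AE17 SC tumors, and Cxcl5 17.7% and 35.5%. In AB1 IPL tumors they took 43.4% (Cxcl5) and 40.8% (Cxcl1). The sum itself was 3.31 to 57.4 CPM (median 5.49) in AB1 IPL, 15.1 to 47.8 CPM (median 27.1) in AB1 SC, 14.4 to 30.2 CPM (median 20.9) in AE17 IPL and 10.8 to 32.5 CPM (median 22.8) in AE17 SC tumors. These shares are descriptions and were not tested.

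**Figure D3:**
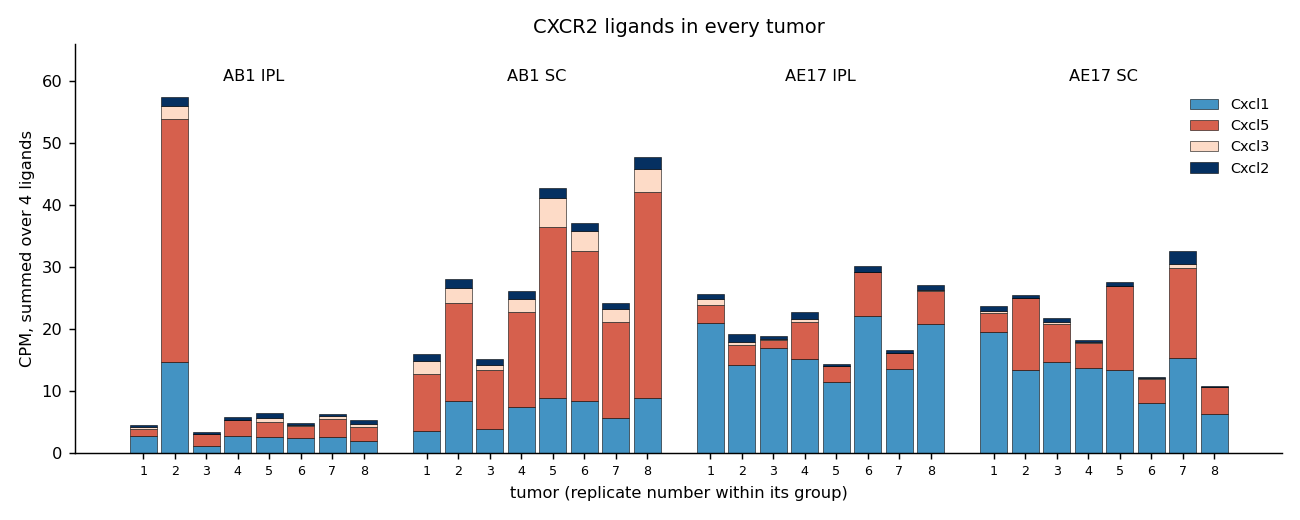
Summed CPM of Cxcl1, Cxcl5, Cxcl3 and Cxcl2 in each tumor, as stacked bars from 0, by group and replicate number. Of the AB1 IPL tumors 7 sum to less than every AB1 SC tumor and replicate 2 reaches 57.4 CPM, and the Cxcl1 segment is larger than that of Cxcl5 in all 8 AE17 IPL tumors and 7 of 8 AE17 SC tumors and smaller in all 8 AB1 SC tumors.

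Lcn2 (chr2:32384633-32388252) was higher in pleural tumors of the AB1 model. It ranged from 0.483 to 52.9 CPM (median 15.4) in AB1 IPL and from 0.121 to 2.94 CPM (median 1.06) in AB1 SC tumors, and 6 of 8 IPL tumors lay above every SC tumor. The difference was 3.96 ± 0.86 (adjusted p = 0.0034), 15.6-fold, and stayed past the threshold without any single tumor (3.61 to 4.28). Within lane 3 it was 3.22 (adjusted p = 0.48). In AE17 the levels were 0.174 to 26.8 CPM (median 2.91) in IPL and 0.237 to 2.64 CPM (median 0.775) in SC tumors, with 4 of 8 IPL tumors above every SC tumor and a difference of 2.37 ± 0.79 that missed the threshold (adjusted p = 0.080, within lane 1 1.26, adjusted p = 0.37). The highest AE17 value, 26.8 CPM in IPL replicate 5, came with 2.04 CPM of S100a8, and without that tumor the AE17 difference was 1.16 (adjusted p = 0.20). The same tumor held the highest AE17 levels of the adipocyte genes Adipoq (108 CPM) and Cidec (98.3 CPM). The highest AB1 value, 52.9 CPM in IPL replicate 2, came with 12.2 CPM of S100a8, 0.485 CPM of Ltf, and the highest AB1 sums of the 4 adipocyte genes (104 CPM) and the 4 mesothelial genes (77.1 CPM). The part of adipose and mesothelial tissue in the Lcn2 levels was not tested. The site effects of the models differed by 1.62 ± 1.17, short of the threshold (adjusted p = 0.36), and 2.02 with lane as a term (adjusted p = 0.63). With the red cell score in the fit the difference was 0.74 in AB1 (adjusted p = 0.77) and 0.08 in AE17 (adjusted p = 0.97), where the red cell genes summed to 80.3 to 717 CPM in IPL and 45.1 to 253 CPM in SC tumors.

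**Figure D4:**
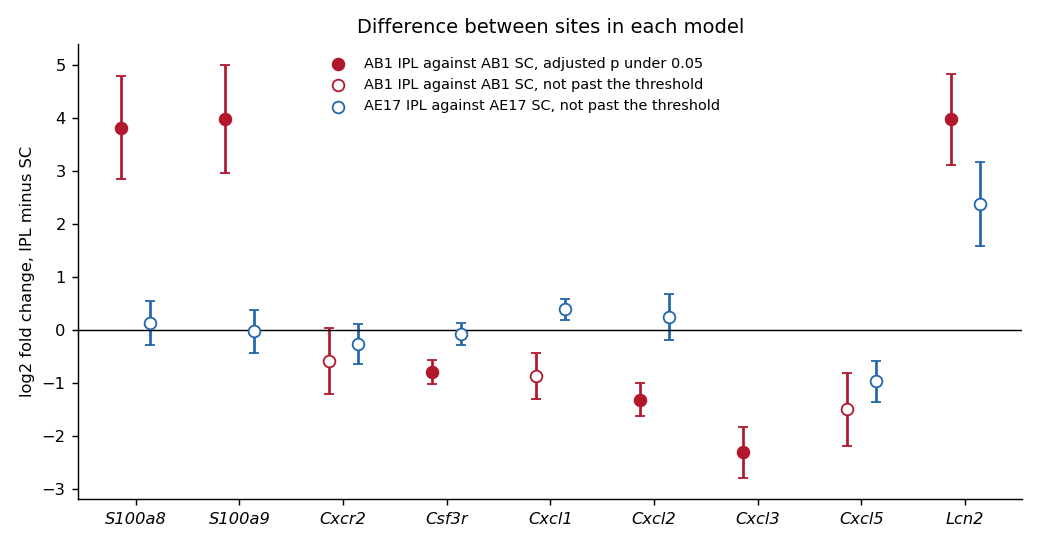
Log2 fold change between IPL and SC tumors for each gene in AB1 (red) and AE17 (blue), from edgeR with 8 tumors in each group. Bars are 1 standard error, filled points have an adjusted p under 0.05, and Cxcl3 was not tested in AE17. S100a8, S100a9 and Lcn2 lie near 4 in AB1 and Cxcl3 at -2.32, while no AE17 point is filled.

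Between the models at a given site, the genes called were ligands and Csf3r under the skin, and calprotectin, Lcn2 and Cxcl1 in the pleura. AB1 SC exceeded AE17 SC tumors in Cxcl3 (above), in Cxcl2 by 0.98 ± 0.38 (adjusted p = 0.028) and in Csf3r by 0.65 ± 0.22 (adjusted p = 0.014), and had less Cxcl1, by -0.94 ± 0.34 (adjusted p = 0.020). Cxcl5 just missed the threshold at 1.29 ± 0.57 (adjusted p = 0.053) and passed it without AB1 SC replicates 1 or 3 or AE17 SC replicates 2, 5 or 7 (1.39 to 1.49), with only these groups in the fit (1.28, adjusted p = 0.0062) and by DESeq2 (1.29, adjusted p = 0.04995). Cxcl2 lost its call without AB1 SC 5 or 8 or AE17 SC 2, 4, 6 or 8 (0.83 to 0.91, adjusted p 0.0502 to 0.0612). AB1 IPL exceeded AE17 IPL tumors in S100a8 by 3.89 ± 0.78 (adjusted p = 7.02e-05) and S100a9 by 4.22 ± 0.83 (adjusted p = 5.64e-05), and had less Cxcl1, by -2.18 ± 0.36 (adjusted p = 3.63e-06), with 7 of 8 AB1 tumors below every AE17 tumor. Lcn2 was higher by 1.87 ± 0.77 (adjusted p = 0.035), a call lost without AB1 IPL replicates 2, 3 or 4 or AE17 IPL 1, 2, 3, 4, 6, 7 or 8 (1.49 to 1.85, adjusted p 0.0515 to 0.0934), with only these groups in the fit (adjusted p = 0.11) and without a filter on low counts (adjusted p = 0.061). Without AB1 IPL replicate 2, Cxcl2 and Cxcl5 passed as lower in AB1 IPL (-0.93, adjusted p = 0.040, and -0.87, adjusted p = 0.043). At each site 4 of the 9 genes were called, where the share over all genes was 58.3% between SC and 63.4% between IPL tumors. AB1 and AE17 tumors of a site shared no lane. With lane as a term in the fit of all 32 tumors no SC call remained, with Cxcl3 at 1.31 (adjusted p = 0.56), Cxcl1 at -0.61 (adjusted p = 0.49), Cxcl2 at 0.93 (adjusted p = 0.34) and Csf3r at 0.90 (adjusted p = 0.096). Between IPL tumors S100a8 (4.65, adjusted p = 0.038), S100a9 (4.80, adjusted p = 0.042) and Cxcl1 (-1.78, adjusted p = 0.046) stayed past the threshold while Lcn2 did not (0.44, adjusted p = 0.87).

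Of 11 cytokines that act upstream of granulocytes and had a row, 7 could be tested in AB1, and 6 were called lower in IPL tumors and none higher (Csf1, Csf2, Il1a, Il1b, Lif and Tnf), with a median log2 fold change of -0.82, where 10.7% of all genes tested were lower. Within lane 3 Csf2 (-2.08, adjusted p = 0.025) and Il1a stayed past the threshold and the other 4 did not. Csf2, which encodes GM-CSF, was at 0.109 to 0.483 CPM in AB1 IPL and 1.14 to 2.28 CPM in AB1 SC tumors without overlap (-2.30 ± 0.23, adjusted p = 7.77e-06), and Il1b fell from a median of 62.2 to 36.4 CPM (-0.82 ± 0.24, adjusted p = 0.018). Tnf (-1.15 ± 0.24, adjusted p = 0.0026), Lif (-0.65 ± 0.13, adjusted p = 0.0013) and Csf1 (-0.41 ± 0.07, adjusted p = 0.00082) fell as well. Csf3 had the higher median in IPL tumors (0.311 against 0.210 CPM), at 0.163 to 0.545 CPM in AB1 IPL and 0.0572 to 0.291 CPM in AB1 SC tumors, where it was not tested. In AE17, where 5.73% of all genes tested were called in either direction, it was the only one of 8 cytokines called, higher in IPL (0.661 to 2.08 CPM) than in SC tumors (0.122 to 0.950 CPM), by 1.28 ± 0.34 (adjusted p = 0.040, within lane 1 1.07, adjusted p = 0.32). Il17a had no count in any AE17 tumor and at most 0.0625 CPM in AB1 tumors, under the limit of detection.

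Of 14 receptors and regulators of the pathway with a row 13 could be tested, and in AB1 4 were lower and none higher in IPL tumors (Il1r1, Il1rn, Tnfaip3 and Zc3h12a), where 10.7% of all genes tested were lower and 23% called in either direction. In AE17 Cebpb was higher and the scavenger receptor Ackr3 lower, where 5.73% of all genes tested were called. Il1r1, a receptor of interleukin-1, fell from a median of 129 to 101 CPM in AB1 (-0.44 ± 0.13, adjusted p = 0.021). The others that were most abundant did not pass in AB1: Il17ra (-0.19 ± 0.07, adjusted p = 0.065), Nfkbiz (-0.26 ± 0.15, adjusted p = 0.23) and Tlr4, a receptor that can bind calprotectin (-0.54 ± 0.22, adjusted p = 0.098). Cxcr4 and its ligand Cxcl12, which hold neutrophils in the marrow, had medians of 18.6 and 34.9 CPM in AB1 IPL and 20.9 and 47.7 CPM in AB1 SC tumors and were not called in either model, nor was the chemokine-binding receptor Ackr1 of venules.

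Of 8 other CXC chemokines with a row 6 could be tested in AB1, and 4 were lower in IPL tumors and none higher, where 10.7% of all genes tested were lower: Cxcl9 (medians 634 CPM in SC and 210 CPM in IPL, -1.55 ± 0.24, adjusted p = 0.00023), Cxcl10 (-1.21 ± 0.21, adjusted p = 0.00058), Cxcl11 and Cxcl16 (-0.76 ± 0.12, adjusted p = 0.00024). Within lane 3 none of the 4 stayed past the threshold (Cxcl9 -1.55, adjusted p = 0.063), and with lane as a term 3 did, all but Cxcl10. Cxcl9, Cxcl10 and Cxcl11 act on the lymphocyte receptor CXCR3. Cxcl13 had medians of 29.1 CPM in IPL and 26.8 CPM in SC tumors. In AE17 none of the 7 tested with edgeR passed, where 5.73% of all genes tested did. Pf4, a platelet chemokine that macrophages also make, was at medians of 11 and 17.6 CPM in AB1 IPL and SC tumors (-0.50 ± 0.20, adjusted p = 0.082). Ppbp, the platelet ligand of CXCR2, reached 33.1 CPM in AB1 IPL replicate 3 and was at most 0.801 CPM in AB1 SC tumors, which were too low for the test, and its site effects differed between models (3.25 ± 1.04, adjusted p = 0.026). Cxcl15, a lung ligand of the family, was at most 0.765 CPM in any tumor.

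Of 8 genes of leukocyte adhesion 5 were called lower in AB1 IPL tumors (Icam1, Itgal, Itgb2, Selplg and Vcam1), where 10.7% of all genes tested were lower, and none was called in AE17, where the share was 5.73% in either direction. Vcam1 of inflamed endothelium was at 64.9 to 115 CPM against 131 to 234 CPM (-1.09 ± 0.14, adjusted p = 4.70e-05) and the leukocyte integrin chain Itgb2 at medians of 123 and 213 CPM (-0.88 ± 0.14, adjusted p = 0.00035). Itgam, the alpha chain of Mac-1, did not pass (-0.31 ± 0.19, adjusted p = 0.27). Of 9 macrophage and monocyte genes 5 were lower in AB1 IPL tumors and none higher (C1qa, Ccr2, Cd68, Ly6c2 and Mrc1), with sums of 1883 to 3671 CPM against 2708 to 3934 CPM, where 10.7% of all genes tested were lower, and none was called in AE17. Eosinophil genes, another granulocyte, were mixed: Ccr3 was lower in IPL tumors of AB1 (-1.01 ± 0.32, adjusted p = 0.031) and AE17 (-1.09 ± 0.29, adjusted p = 0.039), whereas Prg2, an eosinophil granule gene, reached 46.5 and 40.7 CPM in AB1 IPL replicates 3 and 4 and was at most 0.744 CPM in AB1 SC tumors. Of the 6 eosinophil genes 3 could be tested in each model, and 2 were lower in each, against the 10.7% of all genes tested that were lower in AB1 and the 5.73% called in either direction in AE17.

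Markers of other host tissue were as follows. None of the 3 cardiac muscle genes with a row could be tested in either model. Their sum was 0.422 to 33.5 CPM in AB1 IPL and at most 0.408 CPM in AB1 SC tumors, and it was 134 CPM in AE17 IPL replicate 5, at most 4.05 CPM in the other AE17 IPL tumors and at most 0.910 CPM in AE17 SC tumors. Of 4 adipocyte genes 3 could be tested in AB1, where Adipoq was called higher in IPL tumors (3.26 ± 0.95, adjusted p = 0.020) against 12.3% of all genes tested. None of the 4 was called in AE17, against 5.73% of all genes tested in either direction, and there the sum of the list was 311 CPM in IPL replicate 5, at most 16.5 CPM in the other IPL tumors and at most 22.1 CPM in SC tumors. Of 4 keratinocyte and 4 mesothelial genes with a row, 1 of each could be tested in each model and none was called by edgeR. Among the mesothelial genes too low for the test in AE17, Upk3b was at 1.61 to 6.50 CPM in 7 of 8 IPL tumors, at 0 in IPL replicate 1 and at most 0.0594 CPM in SC tumors, and Lrrn4 was at 1.38 to 5.08 CPM in the same 7 tumors, at 0 in replicate 1 and at most 0.189 CPM in SC tumors. The mesothelial sum was 1.69 to 21.4 CPM (median 10.6) in AE17 IPL and 0.305 to 10.6 CPM (median 2.98) in AE17 SC tumors, and 0.381 to 77.1 CPM (median 1.15) in AB1 IPL and 0.523 to 2.92 CPM (median 1.03) in AB1 SC tumors. In AE17, against the same 5.73%, Alas2 was called higher and Itga2b lower in IPL tumors among the 7 red cell and platelet genes tested, and none of the 6 skeletal muscle genes was called.

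Cxcr2 and the ligands were compared within each group, to ask whether receptor and ligand levels moved together from tumor to tumor. Over 16 relations, with 8 tumors each, exact two-sided permutation tests gave no adjusted p under 0.05 on log2 CPM, and 1 unadjusted p under 0.05 for Pearson's r and 2 for Spearman's rho. The relation past both was Cxcl5 in AE17 SC tumors, with r = 0.88 (permutation p = 0.0062, adjusted 0.0996) and Spearman's rho = 0.88 (permutation p = 0.0072, adjusted 0.12), and r = 0.93 without the 2 tumors farthest from the median of Cxcr2. The other was Cxcl3 in AB1 SC tumors, with rho = 0.83 (permutation p = 0.015, adjusted 0.12) and r = 0.65 (permutation p = 0.070, adjusted 0.24). On CPM in place of log2 CPM the r of Cxcl5 in AE17 SC tumors was 0.96 (permutation p = 0.0011, adjusted 0.017). In the other groups r for Cxcl5 was 0.67 in AB1 IPL (permutation p = 0.052), 0.67 in AB1 SC (permutation p = 0.073) and 0.42 in AE17 IPL tumors (permutation p = 0.31), with adjusted p-values of 0.24, 0.24 and 0.38. The AB1 IPL value fell to 0.41 without the 2 tumors farthest from the median, 1 of them replicate 2. The 8 AE17 SC tumors ran on 1 lane.

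**Figure D5:**
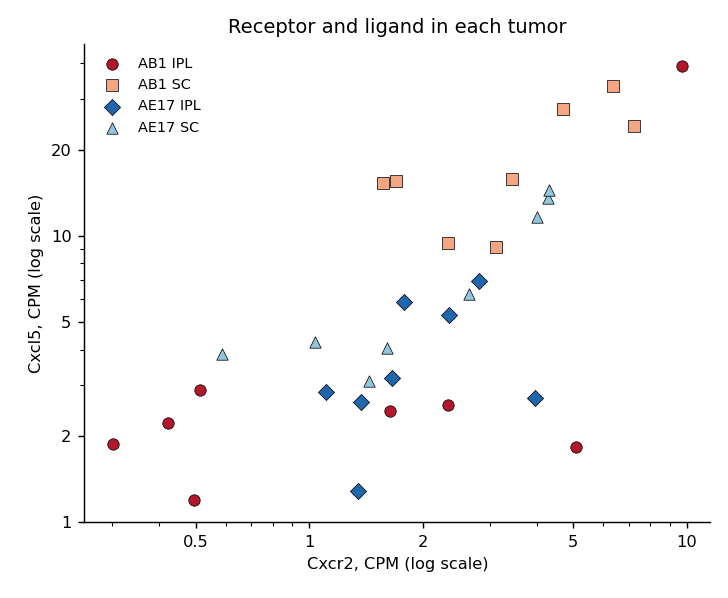
Cxcl5 against Cxcr2 in each tumor, in CPM on log axes, with a marker for each group. In AE17 SC tumors Cxcr2 runs from 0.586 to 4.30 CPM and Cxcl5 from 3.11 to 14.4 CPM, while AB1 IPL replicate 2 lies at the upper right with 9.70 CPM of Cxcr2 and 39.3 CPM of Cxcl5, far from the other AB1 IPL tumors.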

How the data were processed

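RNA of whole tumors was sequenced as single-end reads. The authors mapped reads with HISAT2 2.0.4 after bcl2fastq 1.8.4 (versions from the submitters' processing notes) to a mouse genome named mm11 in the methods, and deposited raw counts per gene. Whether counting used strand is not given in the sources used here. Coordinates and exon lengths came from GENCODE M21 on GRCm38 by gene identifier (39495 of 39676 rows matched without the version), in which no exon of the 9 genes overlaps another gene's.

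Counts were tested in R 4.3.3 with edgeR 4.0.16 (filterByExpr, TMM factors, robust quasi-likelihood fit, two-sided F test, Benjamini-Hochberg adjustment over all genes tested). Site was tested within each model, and the interaction and the model comparisons in a fit of all 32 tumors. log2 CPM used a prior count of 2, and the standard error is the size of the log2 fold change divided by the root of F. Alternatives were DESeq2 1.42.0, its size factors in edgeR, no filter, another choice of tumors in the fit, lane as a term or within 1 lane, a block for replicate number, and omission of each tumor. A red cell score as covariate was added after seeing the data. The procedure was tested on simulated data. Of the rows with the symbol Itgam the one with more counts was used. Correlations, and Cxcl3 in AE17, were tested by exact permutation in scipy 1.17.1, and figures were drawn with matplotlib 3.10.9.

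The genes and all gene lists were chosen with earlier results of these data known. Besides the 9 genes, the rule named Ly6g, Csf3, Csf2, Il17a, Il1b, Ppbp, Pf4, Cxcl15, Ackr1, Cxcl12 and Cxcr4, the 4 genes of each list with the highest mean CPM (lists of other cells and tissues are mostly given as sums), and the 8 genes most like the neutrophil genes. Genes named as called in a list, and Mpo, Cxcl11 and Cxcl13, were chosen after their values were seen. One gene that the rule names is not reported here. Of 149 listed genes 128 had a row. Among 112 pairs of libraries of 1 group, counts differed by 4.18 to 96.3 times the variance that counting alone gives, so that none was a copy. Labels do not tie libraries to litters or cages, and p-values measure the spread between these mice.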

Additional observations from a re-analysis of the deposited data

Results flagged for a closer look

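On the scale of log2 CPM, 36 sets of 8 tumors (9 genes in 4 groups) were examined. In 2 of them a tumor lay beyond the 95% limit of Dixon's test, which chance alone gives in about 1 of 20 sets. Both were AB1 IPL replicate 2, with 14.6 CPM of Cxcl1 and 39.3 CPM of Cxcl5. The same tumor held 31.8 CPM of the mesothelial gene Upk3b. Without this tumor the AB1 site differences by edgeR were -1.60 for Cxcl1 (adjusted p = 0.00018) and -3.15 for Cxcl5 (adjusted p = 7.05e-06). The part of mesothelial tissue in its levels was not tested.

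The site effect differed between AB1 and AE17 by the interaction test of edgeR for 4 genes, with differences of 3.70 for S100a8 and 4.02 for S100a9, -1.54 for Cxcl2 and -2.81 for Cxcl3. With the sequencing lane as a covariate they were 3.46, 3.74, -1.41 and -0.89, none past the threshold.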

How the results depend on the processing

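Of the calls in AB1 between sites, all 6 genes stayed past the threshold under DESeq2, its size factors, no filter, a fit of all 32 tumors and omission of any 1 tumor. Lane left 0 of the 9 genes called as a covariate and 0 within lane 3 (8 tumors against 2), with 386 and 169 genes called over all, against 3374, and a red cell score left 1 gene and 1343 over all, with S100a8 at -1.80, S100a9 at -1.93, Cd177 at -1.21 and Ltf at -0.94 on the log2 scale. By edgeR's unadjusted p under 0.05, 5 of the 9 genes passed with lane as a covariate and 2 within lane 3, where fewer tumors entered the fit. For the other settings the cause was not tested.

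In AE17 between sites, DESeq2 called 1 of the genes and 1768 genes over all, against 840, a fit of all 32 tumors 1324, no filter 550, lane as a covariate 1, and lane 1 alone 14. S100a8 was -0.0935 with the red cell score, S100a9 was 0.41 with lane and 0.41 within lane 1, and Csf3r was 0.0621 with lane and 0.0598 within lane 1. Leaving out 1 tumor gave 316 to 2066 genes over all, S100a8 from -0.28 to 0.34 and S100a9 from -0.35 to 0.18.

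The interaction called 2 genes without a filter (S100a8 and S100a9), 0 with lane (117 over all, against 3212) and 2 to 6 without 1 tumor, and lane left 1 gene with an unadjusted edgeR p under 0.05 (S100a9). Between models under the skin, lane left 0 genes called by edgeR and 1, Csf3r, by unadjusted p (5268 over all, against 9138) and turned Lcn2 to -1.58, which ranged from -0.0703 to 0.59 without 1 tumor. In the pleura, lane left 5008 genes over all (against 9940), with Csf3r at 0.0614 and Krt19 at 0.14, and without 1 tumor Cxcr2 ranged from -0.43 to 0.50, Csf3r from -0.19 to 0.0517, Cxcl3 from -0.0689 to 1.20 and Cxcl5 from -0.87 to 0.98. With CPM in place of log2 CPM, 1 correlation of Cxcr2 with a ligand passed the adjusted threshold.

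Replicate numbers were not taken to pair the tumors, which the correlations cannot exclude. Tumors of the same number in AB1 IPL and AB1 SC correlated at -0.12 on average (deviations from group means), 0 of 8 pairs being above 0.1. Those of other numbers correlated at 0.018. In AE17 the values were 0.072, with 5 of 8 above 0.1, and -0.0073 for other numbers. In AB1 0 numbers and in AE17 3 numbers correlated best with their own. With a replicate block in AB1, 6 genes were called, S100a8 (2.14, adjusted p = 0.25) and S100a9 (2.27, adjusted p = 0.27) no longer and Cxcl1 (-1.24, adjusted p = 0.026) and Cxcl5 (-2.65, adjusted p = 0.0094) in their place. For the interaction 2 genes were called with the block, Cxcl3 (adjusted p = 0.027) and Cxcl1 (adjusted p = 0.032), and S100a8 (adjusted p = 0.067), S100a9 (adjusted p = 0.077) and Cxcl2 (adjusted p = 0.057) no longer were. Cxcl5 passed with it between models under the skin (1.36, adjusted p = 0.020). In the pleura the block gave -0.0650 for Cxcr2 and -0.12 for Cxcl5 between models. Depth limits Cxcl3 and Cxcl2, which are low in AE17 tumors, Cxcl3 being under 3 counts in several libraries.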
